A study of Mus musculus with 9 samples.

Results

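Mouse bone marrow mesenchymal stromal cells that had been kept with peritoneal fluid of colitis mice were compared with the same cells kept with peritoneal fluid of control mice. The comparison took 6 of the 9 libraries of the study, 3 with control fluid (control PF) and 3 with fluid of mice given TNBS for 3 days (TNBS PF). The remaining 3 libraries, from cells given phosphate-buffered saline (PBS), shared the estimate of the spread and are given as values. It covered the 10537 genes of 21959 whose FPKM reached 1 in at least 3 of the 9 libraries. FPKM scales a gene's fragments by its length and by the library's total of assigned fragments. Its sum over all genes was not fixed, at 264046 in PBS 1 to 272973 in control PF 1. Comparisons between libraries therefore also depend on the scaling, and other scalings were among the alternatives.

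All groups used 1 cell line, bone marrow mesenchymal stromal cells marked SV40 in the labels, after the virus whose antigen is used to immortalize cells. The growth medium held 10% serum, and the cells were kept with the fluid or PBS for 24 h. Whether serum was present during the exposure, how many mice gave each fluid and whether the 3 libraries of a group came from separate cultures or fluids is not stated, so the p-values measure the spread between these libraries, which may be technical. TNBS, trinitrobenzene sulfonic acid, is a hapten that is given to rodents to set off colitis. The age and strain of the mice are not given in the labels.

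Mesenchymal stromal cells are found in marrow and other connective tissue, make matrix, secrete growth factors and immune mediators, and are studied as a cell therapy for colitis. Several control circuits of such cells recur below. In the integrated stress response, kinases that sense amino acid shortage, heme shortage or misfolded protein slow translation while the transcription factor ATF4 is made, and ATF4 switches on amino acid synthesis, amino acid transport and the enzymes that load tRNA. YAP and its DNA-binding partner TEAD, and SRF with its actin-sensing cofactor, link attachment and cytoskeletal tension to transcription. SREBP2, held back when sterol is plentiful, drives the genes of cholesterol synthesis.

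The libraries held 18.6 to 21.5 M assigned fragments in control PF, 22.9 to 25.6 M in TNBS PF and 17.9 to 20.3 M in PBS, so depth moved with the group (exact permutation p = 0.1, the smallest that 3 against 3 libraries allow). Thinned to equal depth, 1035 genes were called and 967 of them were among the 1117 called at full depth. Of the stromal markers, 14 of 15 reached 1 FPKM and Lepr did not, and their summed level was 1974 to 1995 FPKM in control PF, 1900 to 1951 in TNBS PF and 2016 to 2084 in PBS. In bulk RNA, fewer cells of a type and less RNA per cell cannot be told apart. All markers of neutrophils, B, T, NK, erythroid, mast, endothelial and intestinal epithelial cells stayed under 1 FPKM in every library, as did 7 of 8 hematopoietic markers, Ptprc among them. Cd34 was the exception, at 44.7 to 50.4 FPKM, and the summed level of the 8 was 46.2 to 50.2 FPKM in control PF, 51.4 to 51.6 in TNBS PF and 48.9 to 51.6 in PBS, with no overlap between the PF groups (exact permutation p = 0.1, adjusted p = 0.229 over 16 library values). Cd68 and Cd14 were the only 2 of 14 macrophage markers to reach 1 FPKM, with a summed list level of 15.4 to 17.5 FPKM in control PF and 16.4 to 18.4 in TNBS PF.

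In TNBS PF, 1117 of the 10537 tested genes, 10.6%, passed an adjusted p of 0.05 against control PF in limma. Of these, 543 were higher (5.15% of those tested) and 574 lower (5.45%). The changes were small. Called genes had a median absolute log2 fold change of 0.21 on the log2(FPKM + 1) scale, against 0.07 over all tested genes, whose median signed change was -0.01. A change of at least 0.5 was reached by 13 genes that rose and 7 that fell, and 0 reached 1. Of the 1117 called genes, 1112 had control PF and TNBS PF values that did not overlap, while 31.8% of all tested genes also did not overlap. The count was 691, 661 and 676 without TNBS PF 1, 2 and 3, and 733 and 708 without control PF 2 and 3. Called in every one of the 15 alternatives were 486 genes, 265 of them higher and 221 lower.

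**Figure D1:**
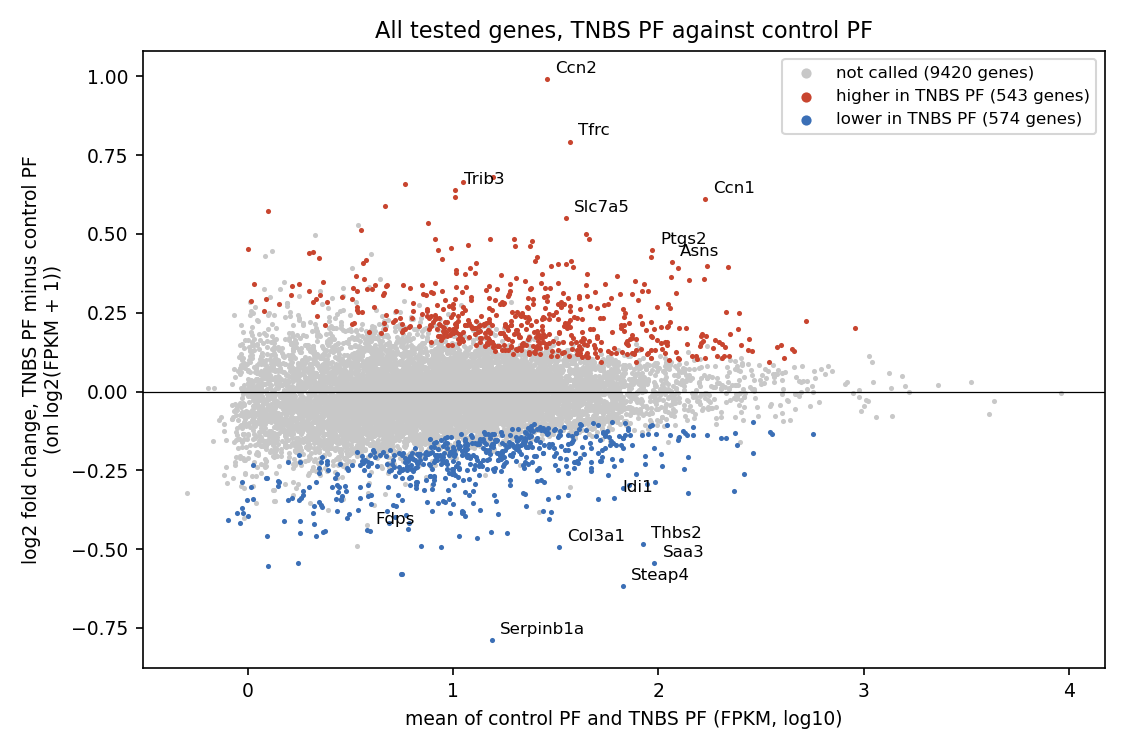
Each point is 1 of the 10537 tested genes, with the mean FPKM of the 6 libraries on a log10 axis and the log2 fold change of TNBS PF over control PF on the other. The 543 genes called higher and 574 called lower are coloured, and Ccn2 and Serpinb1a stand at the upper and lower ends.

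In the authors' deposited table, 61 genes were called for this comparison, 24 up and 37 down, and 58 of them had means under 1 FPKM in both groups. The other 3 were Ccn2, Fgf21 and Gstm7, with log2 fold changes of 1.05, 1.07 and -1.002 in the authors' deposited table. All 3 also passed the test used here, in the same direction. The smallest absolute log2 fold change among the authors' 61 calls was 1.002, while 2491 genes of their table had a p under 0.05 there. The 61 are thus not a count at the threshold used here, which sets no minimum fold change.

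Lists for the supply and use of amino acids held many rises. Of 18 tested effectors of the integrated stress response, 13 rose and 0 fell in limma (1 at an unadjusted p under 0.05, 0 by voom), with a list median of 0.27 against -0.01 for all tested genes, of which 5.15% were called higher. Of 22 enzymes of amino acid and one-carbon synthesis, 16 rose and 0 fell in limma (1 at an unadjusted p under 0.05, 0 by voom), with a median of 0.23. Of 17 amino acid transporters, 7 rose and 3 fell. The stress response count was 8 without control PF 3 and 8 with no filter on low values, and the falls among transporters were 0 without TNBS PF 1 or 3 or control PF 2 or 3 and 1 without TNBS PF 2.

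Promoters of these genes are shown because a composite C/EBP-ATF response element, the site at which ATF4 dimers are known to bind, could be looked up in them. The letters searched were TGATGNAA on both strands, in the 250 bases before each RefSeq start (build GRCm38.p6), where 8449 of the 10535 tested gene symbols had an entry. The motif was in 1.95% of the promoters of all tested genes, in 28.6% of those of the stress response effectors (6 of 21 promoters, since some genes have more than 1), in 15% of those of the amino acid enzymes (3 of 20) and in 23.1% of those of the tRNA synthetases (3 of 13). A match describes letters, and no binding was measured. Only promoters that hold the letters are printed, and those of Trib3, Ddit3, Psph and Mthfd2, which also rose, had 0 matches. Of the motifs searched here, only the CArG box of muscle genes can hold the letters of another, the CCAAT box. The windows hold 120 bases, read 5′ to 3′ on the strand of the gene, with the motif in capitals. The capitals of Asns lie before its RefSeq start but inside the gene as GENCODE lists it.
Chac1 (chr2:119351039-119351158, + strand): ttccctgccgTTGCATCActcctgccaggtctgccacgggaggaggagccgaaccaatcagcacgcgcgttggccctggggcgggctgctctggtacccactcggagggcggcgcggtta
Asns (chr6:7693210-7693329, minus strand): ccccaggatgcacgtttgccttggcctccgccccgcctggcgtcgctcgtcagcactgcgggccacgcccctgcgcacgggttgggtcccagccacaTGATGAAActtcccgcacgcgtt
Tars (chr15:11399659-11399778, minus strand): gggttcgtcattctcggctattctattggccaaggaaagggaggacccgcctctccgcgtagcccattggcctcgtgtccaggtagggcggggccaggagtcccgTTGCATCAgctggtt
Fgf21 (chr7:45615520-45615639, minus strand): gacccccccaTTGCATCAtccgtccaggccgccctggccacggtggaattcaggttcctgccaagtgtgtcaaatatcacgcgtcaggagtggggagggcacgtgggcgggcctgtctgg

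Trib3, a pseudokinase that ATF4 and CHOP induce and that restrains AKT, stood at 7.78, 7.89 and 7.72 FPKM in control PF, 12.4, 12.5 and 13.2 in TNBS PF and 8.64, 7.903 and 7.85 in PBS. All TNBS PF libraries were above all others, and PBS lay with control PF (log2 fold change 0.64, SE 0.0464, adjusted p = 5.43e-06). Chac1, which degrades glutathione, was 7.36, 8.67 and 7.35 FPKM in control PF, 11.6, 11.8 and 14.1 in TNBS PF and 8.105, 9.51 and 8.66 in PBS. Its TNBS PF values again lay above the other 6 libraries (log2 fold change 0.62, SE 0.0788, adjusted p = 0.000341). Ddit3, which encodes the transcription factor CHOP, was 12.1, 10.1 and 10.6 FPKM in control PF, 14.02, 14.8 and 15.6 in TNBS PF and 10.9, 12.3 and 12.8 in PBS. The PF groups did not overlap, and PBS reached from inside the control PF range to a level below the lowest TNBS PF library (log2 fold change 0.41, SE 0.0676, adjusted p = 0.00207). Fgf21, a stress hormone secreted by liver and other tissues, was low at 1.01, 0.848 and 0.586 FPKM in control PF, 1.51, 1.64 and 1.93 in TNBS PF and 1.77, 0.7602 and 1.19 in PBS. PBS 1 lay inside the TNBS PF range (log2 fold change 0.57, SE 0.138, adjusted p = 0.0184), and the call was lost without TNBS PF 2 or 3 or control PF 3, with no filter on low values and at equal depth.

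Among the synthetic enzymes, Asns makes asparagine and measured 100.4, 101 and 96.7 FPKM in control PF, 126, 132 and 139 in TNBS PF and 92.1, 89.4 and 96.6 in PBS. The lowest TNBS PF library exceeded the highest of the other 6 (log2 fold change 0.41, SE 0.0391, adjusted p = 5.01e-05). Cth, the last step of cysteine synthesis from methionine, was 15.7, 16.7 and 16.3 FPKM in control PF, 20.98, 22.8 and 25.6 in TNBS PF and 12.6, 13.8 and 14.8 in PBS. TNBS PF was highest and PBS lowest, with no overlap between any groups (log2 fold change 0.48, SE 0.0663, adjusted p = 0.000552). Psph, which releases serine, rose from 16.7 to 23.4 FPKM (0.46 ± 0.0405 on the log2 scale, ± SE). Mthfd2, a mitochondrial folate enzyme, rose from 38.8 to 50.5 FPKM (0.37 ± 0.0418). The transporter subunit Slc7a5, which imports leucine and other large amino acids, was 26.5, 31.1 and 27.8 FPKM in control PF, 39.5, 41.4 and 45.4 in TNBS PF and 29.9, 26.7 and 31.3 in PBS. TNBS PF stood above both other groups, whose ranges overlapped (log2 fold change 0.55, SE 0.0664, adjusted p = 0.000236). Its partner chain Slc3a2 rose from 39.2 to 49.9 FPKM (0.34 ± 0.03703), and Slc7a11, which imports cystine in exchange for glutamate, from 2.75 to 4.34 FPKM (0.51 ± 0.0659). The cationic amino acid transporter Slc7a3 rose from 1.45 to 2.096 FPKM (0.34 ± 0.0736), a call that was lost without TNBS PF 2.

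Several lists of protein synthesis rose in part. Of 20 aminoacyl-tRNA synthetases, which charge tRNAs, 14 rose and 0 fell in limma (0 at an unadjusted p under 0.05, 0 by voom), with a median of 0.25. Nars, for asparagine, was 147, 147 and 145 FPKM in control PF, 180.1, 190.4 and 193 in TNBS PF and 144, 142 and 151 in PBS. The TNBS PF libraries were apart from the rest (log2 fold change 0.36, SE 0.0329, adjusted p = 3.59e-05). Rars, for arginine, rose from 54.6 to 70.6 FPKM (0.37 ± 0.038996), Tars, for threonine, from 48.6 to 61.8 FPKM (0.34 ± 0.0305) and Wars, for tryptophan, from 14.4 to 18.3 FPKM (0.32 ± 0.0612). Ribosome biogenesis is the nucleolar work of cutting, modifying and assembling ribosomal RNA, and of its 44 tested genes 32 rose and 0 fell in limma (0 at an unadjusted p under 0.05, 0 by voom), with a median of 0.23. The letters CACGTG, which MYC binds, were in 2.38% of the promoters of these genes (1 of 42), against 8.53% for all tested genes. In the other lists searched their share ran from 0% (collagen list) to 23.1% (tRNA synthetases, 3 of 13), with 22.7% for the cholesterol list (5 of 22). Rrp12, a carrier of ribosomal subunits out of the nucleus, was 2.7996, 3.23 and 3.17 FPKM in control PF, 4.35, 3.98 and 4.98 in TNBS PF and 2.93, 3.396 and 3.21 in PBS. Its lowest TNBS PF value was above the highest of the other libraries (log2 fold change 0.42, SE 0.0754, adjusted p = 0.0037). Dkc1, the pseudouridine synthase of small nucleolar particles, rose from 23.5 to 30.2 FPKM (0.35 ± 0.0343) and Gnl3, a nucleolar GTPase, from 10.1 to 12.9 FPKM (0.33 ± 0.0482). Rrp9, of the U3 particle, rose by 0.34, a call lost without TNBS PF 3 or control PF 3 and with no filter on low values.

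Of 30 translation factors, 12 rose and 0 fell in limma (0 at an unadjusted p under 0.05, 0 by voom), with a median of 0.10. Among them Eif2s2 and Eif2s1, subunits of the factor that the stress kinases act on, rose by 0.29 ± 0.0338 and 0.19 ± 0.0383. Eif4ebp1, a brake on cap-dependent initiation, rose from 41.8 to 50.7 FPKM (0.27 ± 0.0343). Eef1e1 rose by 0.30, a call lost without TNBS PF 1, 2 or 3 or control PF 2 or 3 and with no filter on low values. The list's count was 7 without TNBS PF 2 or control PF 3. Ribosomal protein genes took 9.23% to 9.34% of all FPKM in control PF and 9.35% to 9.56% in TNBS PF (exact permutation p = 0.1, adjusted p = 0.229 over 16 library values). In nucleotide and polyamine synthesis 8 of 25 rose and 0 fell in limma (0 at an unadjusted p under 0.05, 0 by voom). Srm, which makes spermidine, was 31.7, 31.6 and 27.7 FPKM in control PF, 39.7, 39.3 and 42.05 in TNBS PF and 30.8, 33.04 and 34.8 in PBS. TNBS PF lay above both other groups (log2 fold change 0.40, SE 0.0545, adjusted p = 0.000507). Odc1, the first enzyme of polyamine synthesis, rose from 76.7 to 89.3 FPKM (0.22 ± 0.0324), and the purine enzyme Atic from 13.6 to 16.1 FPKM (0.22 ± 0.0428).

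Of 33 genes of the mitochondrial ribosome, import and folding, 12 rose and 0 fell in limma (0 at an unadjusted p under 0.05, 0 by voom), and the rises were 5 without TNBS PF 2 or control PF 3, 6 without TNBS PF 3 and 6 with no filter on low values. Hspa9, the matrix HSP70 that pulls proteins in, was 186, 190.2 and 187 FPKM in control PF, 242, 249 and 251 in TNBS PF and 189, 188 and 200.1 in PBS. The TNBS PF values exceeded the other 6 by more than the range within any group (log2 fold change 0.40, SE 0.0306, adjusted p = 9.56e-06). Timm8a1, a small chaperone of the space between the membranes, rose from 19.7 to 27.4 FPKM (0.46 ± 0.0532). Timm10, of the same family, rose by 0.42, and the call was lost without TNBS PF 1, 2 or 3 or control PF 1 or 3, with no filter on low values and at equal depth. Mrps18b, of the small mitochondrial ribosomal subunit, rose by 0.34 with PF groups that overlapped, and the call was lost without TNBS PF 2 or 3 or control PF 2 or 3 and with no filter on low values. Of 37 respiratory chain subunits, 0 rose in limma (1 at an unadjusted p under 0.05, 1 by voom) and 0 fell in limma (0 at an unadjusted p under 0.05, 0 by voom), and Atp5b, the member of smallest p, was at 0.08 ± 0.0266. Of 26 chaperone and degradation genes of the endoplasmic reticulum, 1 rose and 0 fell in limma (4 at an unadjusted p under 0.05, 1 by voom), with a median of -0.03. That gene was Ero1a, an oxidase that forms disulfide bonds, at 79.2, 76.9 and 64.8 FPKM in control PF, 83.9, 104 and 88.4 in TNBS PF and 84.3, 71.2 and 73.9 in PBS. The highest PBS value lay inside the TNBS PF range (log2 fold change 0.32, SE 0.0852, adjusted p = 0.0318), and the call was lost without TNBS PF 2 or 3 or control PF 3, with no filter on low values and after quantile normalization.

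**Figure D2:**
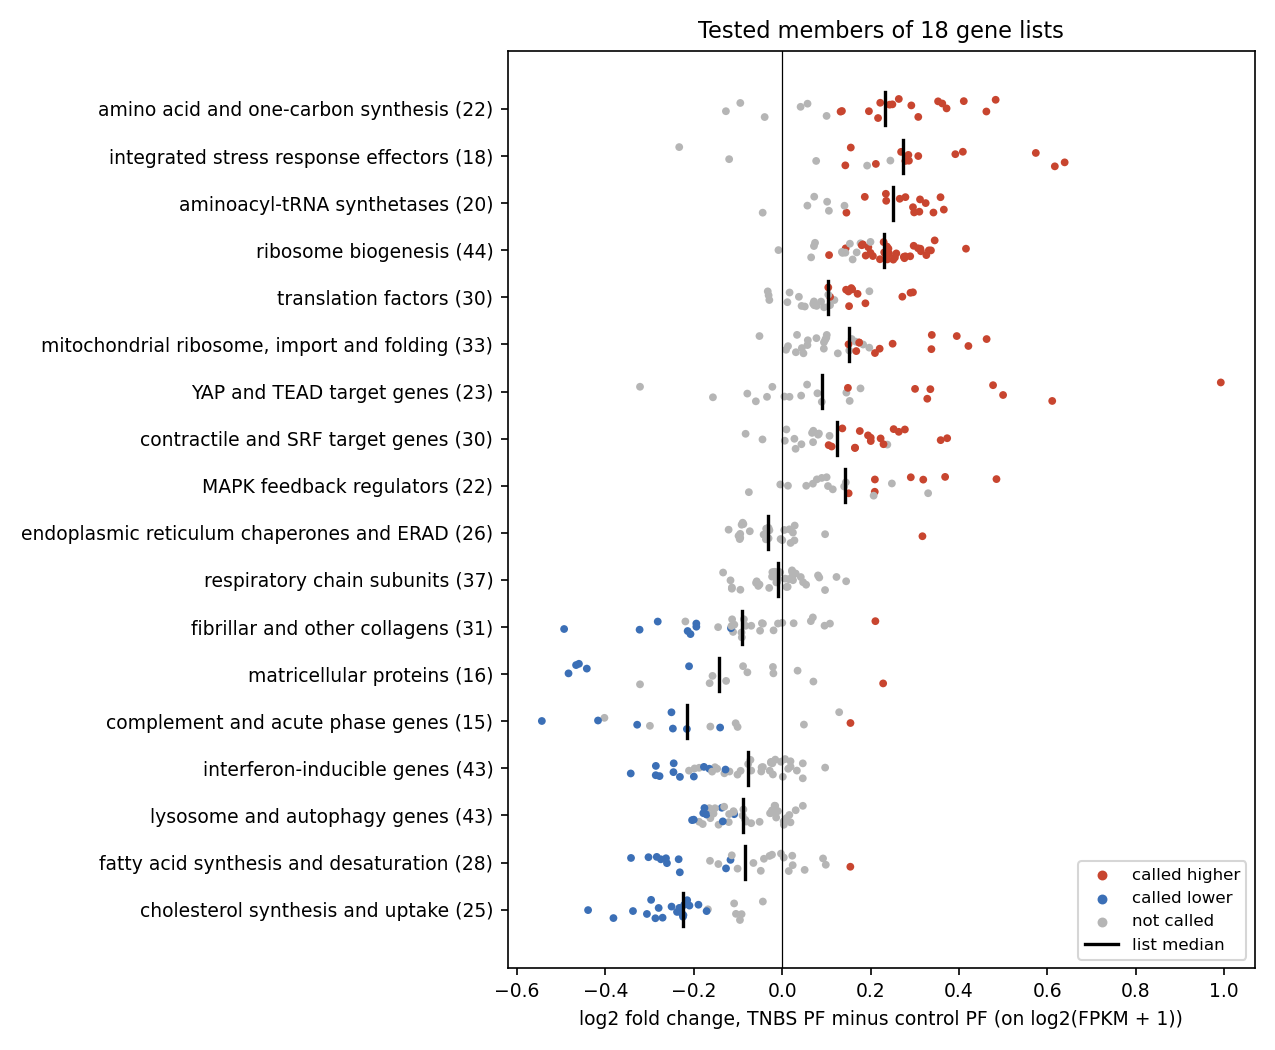
Each point is a tested gene of 1 of 18 lists, placed by its log2 fold change of TNBS PF over control PF and coloured by its call; black bars mark list medians and numbers in brackets the tested members. The medians of the stress response, amino acid, tRNA synthetase and ribosome biogenesis lists lie to the right of 0, though each list has a member to the left. All 25 cholesterol genes lie to the left.

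Among YAP and TEAD targets was the gene with the largest rise on the log2(FPKM + 1) scale. Ccn2 (ENSMUSG00000019997, chr10:24595442-24598683, GRCm38), a secreted matricellular protein also known as connective tissue growth factor, was 19.03, 17.8 and 19.5 FPKM in control PF, 38.3, 39.2 and 37.3 in TNBS PF and 24.1, 22.7 and 25.4 in PBS. The TNBS PF libraries were apart from both other groups, and PBS lay above control PF (log2 fold change 0.99, SE 0.0447, adjusted p = 5.64e-08). The ratio of mean FPKM was 2.04-fold, against 2.08-fold for the less abundant Fgf21. Ccn1, its relative, was 131, 133 and 137 FPKM in control PF, 201, 202 and 209 in TNBS PF and 138, 138 and 143 in PBS. Control PF and PBS differed by a few FPKM while TNBS PF stood above (log2 fold change 0.61, SE 0.0297, adjusted p = 9.83e-08). Ankrd1, a nuclear and sarcomeric ankyrin repeat protein, was 35.6, 36.2 and 37.6 FPKM in control PF, 51.5, 52.9 and 51.4 in TNBS PF and 32.9, 32.7 and 34.3 in PBS. Here PBS was the lowest group (log2 fold change 0.50, SE 0.0328, adjusted p = 2.47e-06). F3, tissue factor, which starts clotting, was 19.8, 19.7 and 20.96 FPKM in control PF, 26.8, 29.04 and 29.6 in TNBS PF and 24.4, 23.2 and 22.996 in PBS. PBS lay between the PF groups without overlap (log2 fold change 0.48, SE 0.04303, adjusted p = 3.24e-05). In all, 8 of 23 tested target genes rose and 0 fell in limma (2 at an unadjusted p under 0.05, 2 by voom), and the list median was 0.09. Of 20 components of the Hippo pathway itself, 3 rose and 2 fell. The rises took in the scaffold Wwc1 at 0.33 ± 0.0631 and the TEAD cofactor Vgll3 at 0.27 ± 0.0444, and the falls Amot, a YAP binder, at -0.24 ± 0.0668. The call of Amot was lost without TNBS PF 1, 2 or 3 or control PF 2 or 3 and with no filter on low values, and the falls were 0 without TNBS PF 2, 1 without TNBS PF 1 or 3 or control PF 2 or 3 and 1 with no filter on low values.

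Of 30 contractile genes and targets of SRF, 16 rose and 0 fell in limma (1 at an unadjusted p under 0.05, 0 by voom), with a median of 0.12. Actg2, a smooth muscle actin, was 9.42, 9.36 and 10.6 FPKM in control PF, 11.9, 13.4 and 13.7 in TNBS PF and 12.1, 11.8 and 13.6 in PBS. Control PF was the low group, and PBS overlapped TNBS PF (log2 fold change 0.37, SE 0.0656, adjusted p = 0.00297). Fhl1, a LIM protein of the contractile apparatus, was 17.5, 18.2 and 16.96 FPKM in control PF, 22.3, 22.03 and 24.05 in TNBS PF and 21.7, 21.1 and 22.99 in PBS. Control PF was again the low group and PBS overlapped TNBS PF (log2 fold change 0.36, SE 0.0447, adjusted p = 0.000295). Fhl2 rose from 22.1 to 27.1 FPKM (0.28 ± 0.0482) and the actin crosslinker Actn1 from 45.5 to 54.9 FPKM (0.26 ± 0.0336).

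Sequences of 3 of these genes are shown for the sites that the lists are known for. The TEAD letters GGAATG, on either strand, were in 36.8% of the promoters of the YAP and TEAD genes (7 of 19) and 28.1% of those of the contractile genes (9 of 32), against 10.4% for all tested genes. The CArG box, which SRF binds, was in 28.1% of contractile promoters (9 of 32) and 1.14% of those of all tested genes. Ccn1 and Ankrd1 show TEAD letters in capitals and Fhl2 a CArG box. The Ankrd1 and Fhl2 windows lie before their RefSeq starts but wholly inside the genes as GENCODE lists them.
Ccn1 (chr3:145649986-145650105, minus strand): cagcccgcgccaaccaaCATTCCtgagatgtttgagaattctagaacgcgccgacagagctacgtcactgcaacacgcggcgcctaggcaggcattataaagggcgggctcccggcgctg
Ankrd1 (chr19:36119945-36120064, minus strand): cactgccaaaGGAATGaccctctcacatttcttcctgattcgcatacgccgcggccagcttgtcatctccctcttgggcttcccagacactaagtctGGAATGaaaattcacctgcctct
Fhl2 (chr1:43196762-43196881, minus strand): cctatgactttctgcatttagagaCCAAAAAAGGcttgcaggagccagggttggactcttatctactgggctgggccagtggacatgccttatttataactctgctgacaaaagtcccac

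Growth signalling and cell cycle lists were mixed. Of 22 MAPK feedback regulators, most of which are induced by ERK and then restrain it, 7 rose and 0 fell in limma (0 at an unadjusted p under 0.05, 0 by voom), and the rises were 3 without TNBS PF 1 and 4 without TNBS PF 3. Dusp5, a nuclear ERK phosphatase, was 6.56, 6.305 and 7.08 FPKM in control PF, 9.54, 9.75 and 9.81 in TNBS PF and 8.26, 6.004 and 7.66 in PBS. TNBS PF was tight and above both other groups (log2 fold change 0.48, SE 0.0822, adjusted p = 0.00243). Etv4 and Etv5, transcription factors downstream of ERK, rose from 14.8 to 19.4 FPKM (0.37 ± 0.0497) and from 10.9 to 13.5 FPKM (0.29 ± 0.0504). Phlda1 rose by 0.32, a call lost without TNBS PF 1 or control PF 2 and with no filter on low values. Hbegf, a ligand of the EGF receptor, was 12.004, 12.1 and 12.9 FPKM in control PF, 18.3, 18.4 and 16.4 in TNBS PF and 13.7, 12.3 and 13.7 in PBS. Its TNBS PF values were above all of the other 6 (log2 fold change 0.49, SE 0.0547, adjusted p = 0.000155). Ccnd1, the D cyclin that drives G1, was 37.4, 38.01 and 38.4 FPKM in control PF, 54.01, 53.7 and 52.5 in TNBS PF and 38.8, 40.6 and 41.2 in PBS. None of the 3 groups overlapped, and TNBS PF was highest (log2 fold change 0.48, SE 0.0313, adjusted p = 2.47e-06). Myc rose from 32.3 to 39.95 FPKM (0.30 ± 0.0347) and Ccnd2 from 19.7 to 23.6 FPKM (0.24 ± 0.0363), while Mxd4, which opposes MYC, fell by 0.27. Of 32 regulators of G1 and S, 4 rose and 5 fell, the falls being 3 without TNBS PF 1 or 3 or control PF 1. Of 36 mitosis genes, 6 fell and 0 rose in limma (1 at an unadjusted p under 0.05, 0 by voom). Top2a, the topoisomerase of dividing cells, was 129.7, 129 and 134 FPKM in control PF, 117, 118 and 117 in TNBS PF and 128, 124 and 126 in PBS. TNBS PF was the low group (log2 fold change -0.16, SE 0.0267, adjusted p = 0.00261). The mitosis falls were 1 without TNBS PF 1 or 3 or control PF 2 or 3, 2 without TNBS PF 2 and 3 after median-ratio scaling and at equal depth.

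**Figure D3:**
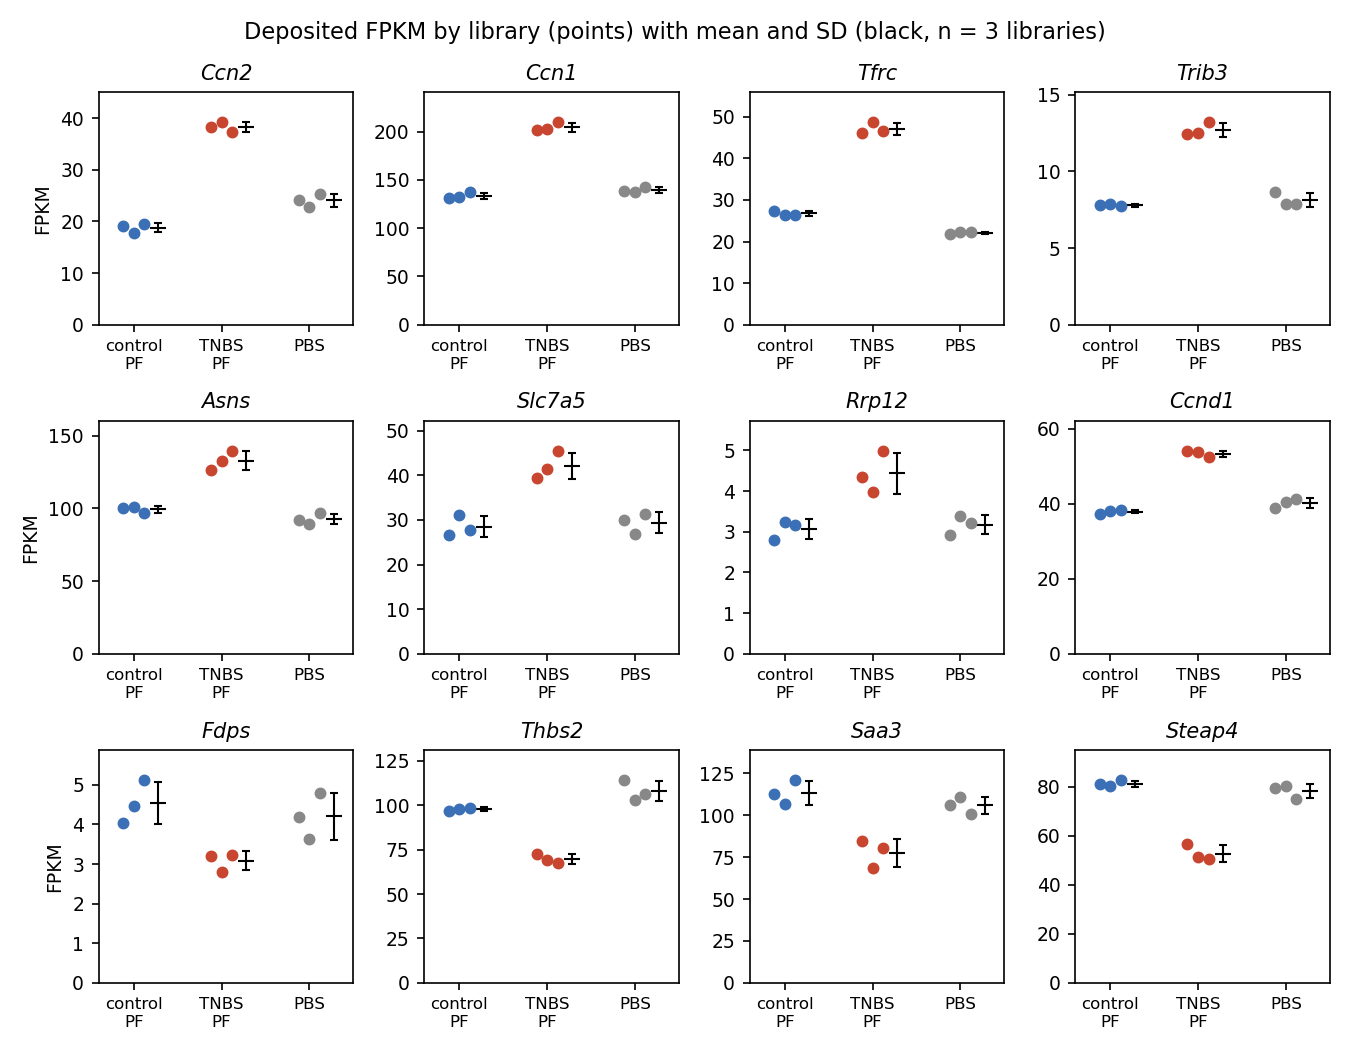
Deposited FPKM of 12 genes in each library, with 3 points per group and the mean and SD in black, on axes that start at 0. The 8 genes that rose have their TNBS PF points above the control PF points, and the 4 that fell have them below.

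Iron handling moved at both ends. Tfrc (ENSMUSG00000022797, chr16:32608920-32632794, GRCm38), the transferrin receptor and route of iron uptake, was 27.4, 26.4 and 26.5 FPKM in control PF, 46.02, 48.6 and 46.5 in TNBS PF and 21.7, 22.2 and 22.3 in PBS. TNBS PF was far above control PF, which was itself above PBS, with no overlap (log2 fold change 0.79, SE 0.0332, adjusted p = 4.47e-08). Steap4, a metalloreductase that reduces iron and copper for uptake, was 80.95, 80.2 and 82.5 FPKM in control PF, 56.5, 51.2 and 50.3 in TNBS PF and 79.4, 80.04 and 74.97 in PBS. TNBS PF was below both other groups, and PBS lay just under control PF (log2 fold change -0.62, SE 0.0419, adjusted p = 3.11e-06). Cp, the ferroxidase ceruloplasmin, was 42.4, 39.04 and 40.3 FPKM in control PF, 31.3, 32.4 and 32.7 in TNBS PF and 34.7, 32.6 and 31.1 in PBS. PBS overlapped TNBS PF, and control PF was the high group (log2 fold change -0.33, SE 0.0425, adjusted p = 0.000385). In the list, 2 of 34 rose and 7 fell, and the falls were 2 to 4 whichever of the 6 PF libraries was left out and 3 with no filter on low values and at equal depth. The rises were 1 without TNBS PF 1 or 3 or control PF 3, 4 after median-ratio scaling and 1 with no filter on low values. Heph, another ferroxidase, fell by 0.23, a call lost whichever of the 6 PF libraries was left out, after quantile normalization and at equal depth.

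Matrix genes fell more often than they rose. Of 31 genes of collagens and of the enzymes and chaperone that process them, 8 fell and 1 rose, with a median of -0.09 against -0.01 for all tested genes, of which 5.45% were called lower. Col3a1, a fibrillar collagen of soft tissue and scars, was 39.4, 38.1 and 37.4 FPKM in control PF, 26.9, 27.3 and 26.5 in TNBS PF and 48.7, 45.3 and 46.2 in PBS. The 3 groups did not overlap, with TNBS PF lowest and PBS highest (log2 fold change -0.49, SE 0.0347, adjusted p = 4.25e-06). Col6a1, a microfibril collagen, was 151, 157 and 155 FPKM in control PF, 125, 121 and 124 in TNBS PF and 174, 164 and 171 in PBS. The order was the same (log2 fold change -0.32, SE 0.0296, adjusted p = 3.59e-05). Col6a2 and Col5a3 fell by 0.28 and 0.21, and Col8a1, named after its value was seen, was the member that rose, by 0.21. In the matricellular list, 5 of 16 fell and 1 rose, with a median of -0.14, and the falls were 3 without TNBS PF 2 or control PF 1 or 3 and 3 with no filter on low values. Thbs2, a thrombospondin that limits collagen fibrils and vessels, was 96.7, 98.1 and 98.6 FPKM in control PF, 72.6, 68.98 and 67.6 in TNBS PF and 114, 103 and 107 in PBS. TNBS PF was below the other groups by more than the range within either (log2 fold change -0.48, SE 0.0383, adjusted p = 1.13e-05). Tgfbi fell from 15.4 to 10.9 FPKM (-0.47 ± 0.0556), Spon2 from 4.66 to 3.17 FPKM (-0.44 ± 0.0771) and Ccn5 from 1.596 to 0.879 FPKM (-0.46 ± 0.106), the last call lost without TNBS PF 2 or control PF 1 or 3 and with no filter on low values. Tnc, tenascin, was the member that rose, by 0.23, and was likewise named after its value was seen.

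Of 21 basement membrane and elastic fibre genes, 7 fell and 0 rose in limma (0 at an unadjusted p under 0.05, 0 by voom), and the falls were 4 without TNBS PF 1 or 2. Efemp1, a fibulin, was 13.4, 12.4 and 13.3 FPKM in control PF, 9.46, 10.2 and 9.403 in TNBS PF and 15.7, 13.5 and 13.2 in PBS. TNBS PF lay below the other 6 libraries (log2 fold change -0.39, SE 0.0596, adjusted p = 0.00108). Emilin1, an elastic fibre glycoprotein, fell by 0.34 and Fbn1, fibrillin, by 0.24. Among proteoglycan and hyaluronan genes 4 of 19 fell and 1 rose, and the falls were 2 without TNBS PF 2. Aspn, a leucine-rich proteoglycan of fibrous tissue, was 7.45, 6.35 and 6.95 FPKM in control PF, 4.501, 3.87 and 4.54 in TNBS PF and 10.2, 9.92 and 11.02 in PBS. All 3 groups were apart, with PBS highest (log2 fold change -0.58, SE 0.0665, adjusted p = 0.000176). Ogn, a related proteoglycan, fell by 0.24. Vcan, a large hyaluronan-binding proteoglycan, fell by 0.19, a call lost without TNBS PF 2 or control PF 3. The mean of Vcan was 18.4 FPKM in control PF, 15.99 in TNBS PF and 15.92 in PBS. Cd44, the hyaluronan receptor and a stromal marker, rose, at 77.5, 78.5 and 75.001 FPKM in control PF, 89.4, 90.5 and 88.2 in TNBS PF and 88.9, 91.1 and 88.5 in PBS, where PBS overlapped TNBS PF (log2 fold change 0.21, SE 0.0283, adjusted p = 0.000456). Of 31 metalloproteinases and inhibitors, 8 fell and 1 rose, the falls taking in Adamts4, which cuts proteoglycans, by 0.35 and Mmp19 by 0.32. Those falls were 2 to 5 whichever of the 6 PF libraries was left out and 3 with no filter on low values, and Adam19, a membrane shedding protease, rose by 0.27.

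Of 14 tested stromal markers, 4 fell and 2 rose, with a median of 0.00388. The falls took in both receptors for PDGF. Pdgfra was 12.5, 12.4 and 12.9 FPKM in control PF, 9.37, 9.31 and 9.74 in TNBS PF and 13.2, 12.3 and 11.8 in PBS, and Pdgfrb was 17.99, 18.6 and 19.9 FPKM in control PF, 14.5, 13.8 and 14.1 in TNBS PF and 19.6, 18.99 and 19.3 in PBS. Both were lower in all TNBS PF libraries than in the other 6 (log2 fold change -0.38 ± 0.0456 and -0.39 ± 0.0412, ± SE, adjusted p = 0.000235 and 0.000104). Of 21 receptor tyrosine kinases 2 rose and 4 fell, and the falls were 2 without TNBS PF 1 or 2 or control PF 3. Epha2, an ephrin receptor of epithelium and tumours, rose from 21.8 to 29.6 FPKM (0.43 ± 0.0436). Erbb3 fell by 0.30, a call lost without TNBS PF 1, 2 or 3 or control PF 2 or 3 and with no filter on low values. Of 30 secreted growth factors 6 rose and 6 fell. Vegfd, a lymphatic growth factor, was 14.9, 15.8 and 15.2 FPKM in control PF, 12.1, 11.4 and 11.2 in TNBS PF and 14.9, 14.7 and 15.04 in PBS. The TNBS PF values lay below the others (log2 fold change -0.38, SE 0.0411, adjusted p = 0.000124). Angpt1, a vessel-stabilizing ligand, fell from 2.48 to 1.66 FPKM (-0.39 ± 0.0762). Inhba, the activin A subunit, was 32.9, 31.6 and 31.9 FPKM in control PF, 41.95, 44.98 and 42.8 in TNBS PF and 37.4, 35.8 and 39.4 in PBS. PBS lay between the PF groups (log2 fold change 0.42, SE 0.0394, adjusted p = 4.99e-05). Id1, a BMP target, rose from 8.81 to 11.8 FPKM (0.39 ± 0.0612), within a TGF-beta and BMP list of 38 in which 6 rose and 2 fell. The falls in that list were 0 to 1 whichever of the 6 PF libraries was left out, 0 after median-ratio scaling and with no filter on low values, 4 in a fit of the 6 PF libraries alone and 5 by voom.

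Most genes of sterol synthesis fell. Of 25 tested genes that make or take up cholesterol, 19 fell and 0 rose in limma (0 at an unadjusted p under 0.05, 0 by voom), the median was -0.22, and all 25 fold changes were below 0 whether called or not. Idi1, the isoprenoid isomerase, was 69.1, 67.5 and 66.6 FPKM in control PF, 53.98, 53.5 and 52.7 in TNBS PF and 62.3, 70.8 and 66.3 in PBS. TNBS PF lay below the other 6 libraries (log2 fold change -0.34, SE 0.03998, adjusted p = 0.000217). Mvd, which makes isopentenyl diphosphate, was 31.1, 35.3 and 36.1 FPKM in control PF, 24.6, 26.4 and 26.8 in TNBS PF and 32.6, 32.8 and 33.2 in PBS. TNBS PF was below the other groups (log2 fold change -0.38, SE 0.0503, adjusted p = 0.000434). Fdps, which makes farnesyl diphosphate, was 4.04, 4.47 and 5.11 FPKM in control PF, 3.1996, 2.804 and 3.24 in TNBS PF and 4.19, 3.62 and 4.81 in PBS. Its TNBS PF libraries were all below the other 6 libraries (log2 fold change -0.44, SE 0.0889, adjusted p = 0.00723). Acat2, which joins the first acetyl units, was 74.04, 73.6 and 74.8 FPKM in control PF, 59.9, 61.5 and 58.1 in TNBS PF and 69.8, 68.8 and 73.5 in PBS. TNBS PF was again the low group (log2 fold change -0.31, SE 0.0325, adjusted p = 0.000104).

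Promoters are shown for the sterol regulatory element and the CCAAT box, the latter a site of NF-Y, which is known to work beside SREBP at sterol genes. CCAAT on either strand was in 72.7% of the cholesterol promoters (16 of 22), against 36% of those of all tested genes. In the other lists searched the CCAAT share ran from 28.6% (ribosome biogenesis, 12 of 42) to 53.8% (tRNA synthetases, 7 of 13), with 50% for the amino acid enzymes (10 of 20). CACNCCAC, one form of the sterol element, was in 13.6% (3 of 22) against 5.5%. These letters were not particular to the cholesterol list. In the other lists searched their share ran from 0% (ribosome biogenesis) to 15.6% (contractile genes, 5 of 32), with 12% for the collagen list (3 of 25). Capitals mark CCAAT or its reverse complement in Idi1 and Mvd, and the sterol letters in Acat2. The capitals of Idi1 lie before its RefSeq start but inside the gene as GENCODE lists it.
Idi1 (chr13:8885486-8885605, + strand): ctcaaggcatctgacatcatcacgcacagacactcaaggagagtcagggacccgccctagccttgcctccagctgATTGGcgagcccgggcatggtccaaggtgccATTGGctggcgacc
Mvd (chr8:122443423-122443542, minus strand): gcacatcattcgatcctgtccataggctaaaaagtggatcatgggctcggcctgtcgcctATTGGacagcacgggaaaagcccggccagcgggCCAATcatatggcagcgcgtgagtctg
Acat2 (chr17:12960726-12960845, minus strand): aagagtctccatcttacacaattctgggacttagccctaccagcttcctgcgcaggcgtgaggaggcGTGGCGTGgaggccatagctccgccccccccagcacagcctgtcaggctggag

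Of 28 genes of fatty acid synthesis and desaturation, many of them driven by SREBP1, 10 fell and 1 rose, which was Fads3, named after its value was seen and not called without TNBS PF 2 or control PF 3. Acsl3, which activates fatty acids at lipid droplets, was 31.7, 31.1 and 34.2 FPKM in control PF, 25.8, 24.5 and 25.6 in TNBS PF and 30.3, 31.7 and 32.05 in PBS. The TNBS PF libraries were below the other 6 (log2 fold change -0.34, SE 0.0406, adjusted p = 0.000218). Lpin1 fell by 0.30, and Fasn, fatty acid synthase, by 0.28, the latter call lost with no filter on low values. Acss2 fell by 0.27, a call lost without TNBS PF 1 or 3 or control PF 1, 2 or 3, after quantile normalization and at equal depth. Of 17 targets of LXR, the receptor that senses oxysterols, and genes of sterol efflux, 5 fell and 0 rose in limma (1 at an unadjusted p under 0.05, 0 by voom), and the falls were 2 without TNBS PF 3 or control PF 3, 3 without TNBS PF 1, 3 with no filter on low values and 8 by voom. Ch25h, which makes 25-hydroxycholesterol, was 1.999, 1.94 and 1.64 FPKM in control PF, 1.09, 1.18 and 1.16 in TNBS PF and 1.94, 1.48 and 1.703 in PBS. All TNBS PF libraries were lower than the rest (log2 fold change -0.41, SE 0.0777, adjusted p = 0.00476). Mylip, which degrades the LDL receptor, fell by 0.35, and Cyp7b1, which hydroxylates oxysterols, by 0.33, the latter call lost without TNBS PF 2 or 3 or control PF 1 or 3 and with no filter on low values. Of 43 tested genes of lysosomes and autophagy, 8 fell and 0 rose in limma (0 at an unadjusted p under 0.05, 0 by voom), and the falls were 5 without TNBS PF 1. They took in the protective protein Ctsa at -0.20 ± 0.0384, the acid lipase Lipa at -0.20 ± 0.0386 and the protease Ctsd at -0.18 ± 0.0324.

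**Figure D4:**
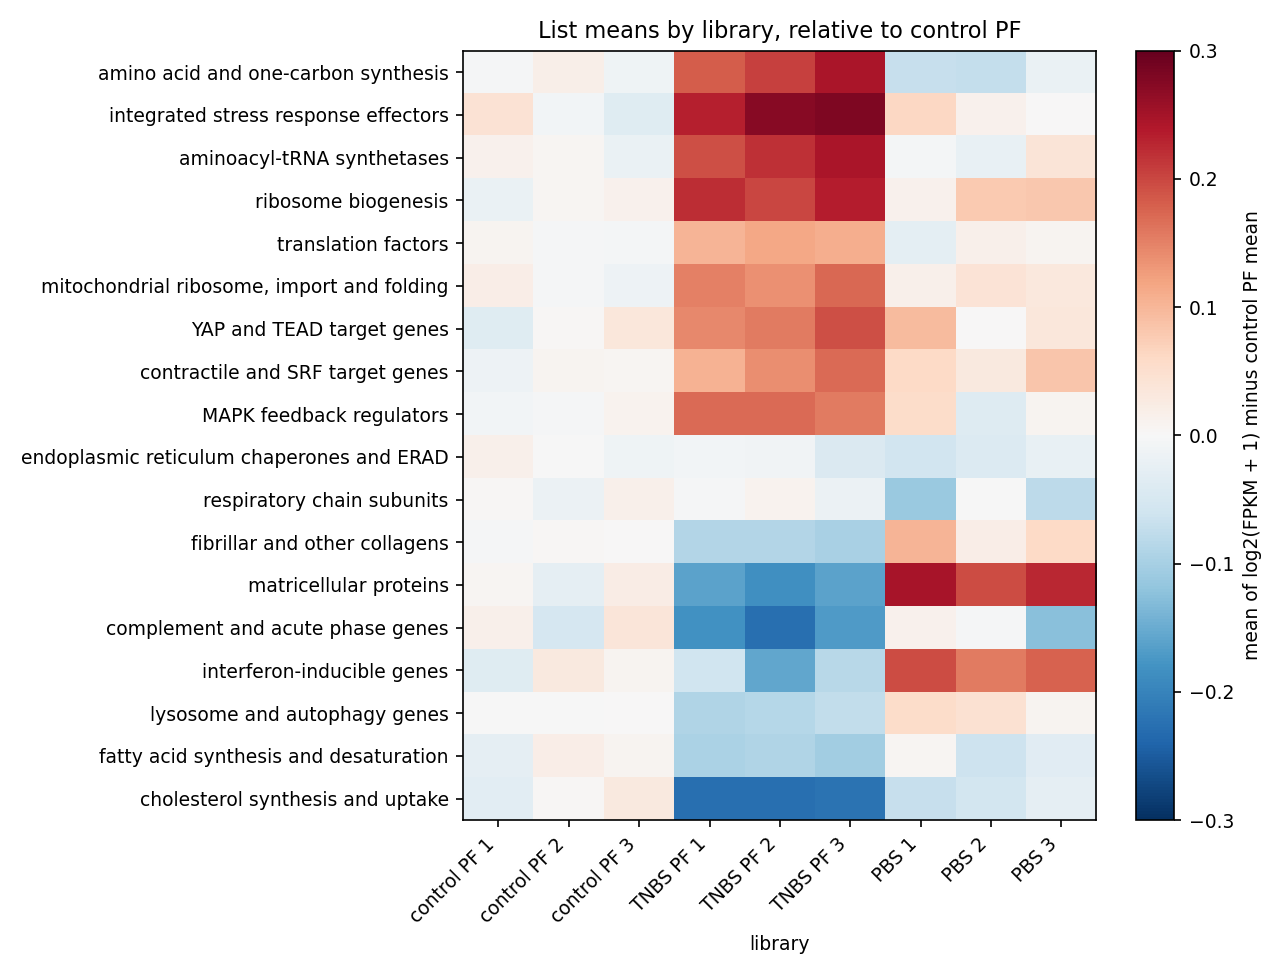
Mean log2(FPKM + 1) of the tested members of 18 lists in each of the 9 libraries, as a difference from the control PF mean. The 3 TNBS PF libraries lie above 0 in the amino acid and translation rows and below 0 in the collagen, matricellular and sterol rows, while matricellular and interferon-inducible genes were higher in PBS than in control PF.

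Immune genes moved both ways. Tslp, an alarmin that primes type 2 immunity, was 12.9, 11.3 and 11.1 FPKM in control PF, 20.9, 17.996 and 19.5 in TNBS PF and 15.3, 18.3 and 14.1 in PBS. The PF groups did not overlap, and PBS spread from above control PF to inside the TNBS PF range (log2 fold change 0.68, SE 0.0816, adjusted p = 0.000225). Tigit, a checkpoint receptor usually found on T and NK cells, was 8.94, 8.07 and 8.19 FPKM in control PF, 14.04, 13.2 and 14.5 in TNBS PF and 7.07, 7.504 and 9.42 in PBS. All TNBS PF libraries were above the others (log2 fold change 0.67, SE 0.0794, adjusted p = 0.000219), while Cd3e and the other T and NK markers stayed under 1 FPKM. Its ligand Pvr rose by 0.22, a call lost without TNBS PF 2 or 3 or control PF 1, 2 or 3 and with no filter on low values. Ptgs2, the inducible cyclooxygenase, was 80.6, 76.4 and 78.7 FPKM in control PF, 107, 111 and 104 in TNBS PF and 84.7, 85.8 and 81.1 in PBS. TNBS PF was above both other groups (log2 fold change 0.45, SE 0.0337, adjusted p = 7.48e-06). Lif rose from 9.05 to 11.3 FPKM (0.29 ± 0.0417) and Tnfrsf12a, the receptor for TWEAK, from 43.4 to 54.3 FPKM (0.31 ± 0.0538). Of 37 interleukin and TNF family genes 3 rose and 6 fell, the falls being 2 without control PF 2, 3 without TNBS PF 1 or 3 or control PF 3 and 3 with no filter on low values. Of 16 chemokines and receptors, 2 rose and 0 fell in limma (2 at an unadjusted p under 0.05, 1 by voom). The rises were Cxcl3 at 0.23 ± 0.0568, lost without TNBS PF 1 or 3 or control PF 3 and with no filter on low values, and Ccl5 at 0.17 ± 0.0474, lost without TNBS PF 1 or 3 or control PF 1, 2 or 3, with no filter on low values and after quantile normalization.

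Of 15 complement and acute phase genes, 7 fell and 1 rose, with a median of -0.22. Saa3, an acute phase apolipoprotein made by stromal cells and macrophages, was 112, 106 and 121 FPKM in control PF, 84.3, 68.3 and 80.2 in TNBS PF and 106, 111 and 101 in PBS. TNBS PF was below the other 6 libraries (log2 fold change -0.54, SE 0.0667, adjusted p = 0.000269). C1s1, a complement protease, fell by 0.25, a call lost without TNBS PF 2 or control PF 2 and with no filter on low values. The falls also took in Cp, described with iron, and Pros1, an anticoagulant cofactor named after its value was seen. Serpina3g fell by 0.42, a call lost without TNBS PF 1 or control PF 1. Of 43 interferon-inducible genes 11 fell and 0 rose in limma (1 at an unadjusted p under 0.05, 0 by voom), and the falls were 6 without TNBS PF 2 or control PF 2 and 7 with no filter on low values. Gbp2, a guanylate-binding protein that attacks intracellular pathogens, was 55.7, 59.96 and 54.999 FPKM in control PF, 47.7, 44.2 and 42.2 in TNBS PF and 60.3, 61.7 and 58.05 in PBS. The lowest of the other 6 libraries exceeded all of TNBS PF (log2 fold change -0.34, SE 0.0456, adjusted p = 0.000456). Iigp1, a related GTPase, was 30.04, 32.4 and 29.6 FPKM in control PF, 25.6, 23.9 and 25.5 in TNBS PF and 35.4, 35.1 and 34.6 in PBS. The order was PBS highest and TNBS PF lowest, without overlap (log2 fold change -0.29, SE 0.0399, adjusted p = 0.000624). Gbp5 fell by 0.29, a call lost without TNBS PF 1 or 2 or control PF 1, 2 or 3 and with no filter on low values, and Ifit3b by 0.28 with overlapping groups, a call lost without TNBS PF 2 or 3 or control PF 1 or 2 and with no filter on low values. Of 33 innate sensors and NF-kB regulators 2 rose and 5 fell, the falls being 2 without TNBS PF 2 or 3, 3 without TNBS PF 1 or control PF 3, 3 with no filter on low values and 8 by voom. Tlr5, the flagellin receptor, fell from 2.16 to 1.54 FPKM (-0.32 ± 0.0671), and Tlr2, for bacterial lipoproteins, by 0.25, a call lost without TNBS PF 2. Tnfaip3, a brake on NF-kB, rose from 10.3 to 12.6 FPKM (0.26 ± 0.0512). Gbp2, Gbp5, Iigp1, Ifit3b, Saa3, Serpina3g, Serpina3i, Serpinb1a, Gstm7, Ly6c1 and Fdps have close copies in the genome, so their values are uncertain, and how reads shared between copies were assigned is not stated in the sources used.

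In coagulation and fibrinolysis, 5 of 22 rose and 3 fell. Serpinb1a (ENSMUSG00000044734), an intracellular inhibitor of neutrophil proteases rather than a clotting factor, had the largest fall on the log2(FPKM + 1) scale, though Gstm7, Serpina3g, Serpina3i and Ccn5 had lower ratios of mean FPKM, 0.493 to 0.551 against 0.560 for Serpinb1a. It was 20.7, 19.8 and 18.8 FPKM in control PF, 12.5, 9.94 and 10.8 in TNBS PF and 15.2, 15.3 and 15.5 in PBS, with TNBS PF lowest, PBS between and no overlap (log2 fold change -0.79, SE 0.0638, adjusted p = 1.26e-05). Serpinb2, an inhibitor of urokinase, was 6.35, 6.27 and 5.301 FPKM in control PF, 8.68, 9.25 and 9.29 in TNBS PF and 5.15, 4.81 and 5.59 in PBS. TNBS PF was above both other groups (log2 fold change 0.53, SE 0.0668, adjusted p = 0.0003). Plaur, the urokinase receptor, was 10.2, 9.51 and 9.55 FPKM in control PF, 12.7, 14.3 and 14.7 in TNBS PF and 10.6, 10.8 and 10.8 in PBS. TNBS PF was again above both, with PBS above control PF (log2 fold change 0.46, SE 0.0521, adjusted p = 0.000152). Other lists were mixed. Of 28 p53 targets 6 rose and 3 fell, the rises being 3 without TNBS PF 2 or control PF 3. They took in Aen at 0.36 ± 0.0763 and Gadd45a at 0.34 ± 0.0524, in a line marked SV40, a virus whose antigen is known to bind p53. Gadd45a was also counted among the YAP and TEAD targets. Sesn2, another of these rises, was also counted among the stress response effectors. NRF2 antioxidant genes gave 4 of 25 that rose, with Txnrd1 at 0.23 ± 0.0274, and 4 that fell, with Sod2 at -0.29 ± 0.0508. The mean of Sod2 was 14.2 FPKM in control PF, 11.44 in TNBS PF and 11.35 in PBS. Of 18 clock genes, 0 rose in limma (2 at an unadjusted p under 0.05, 1 by voom) and 0 fell in limma (2 at an unadjusted p under 0.05, 1 by voom), and Csnk1e, the member of smallest p, was at 0.13 ± 0.04098.

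The next lists had called shares from 3.7% (antigen presentation) to 50% (the 10 integrins), against 10.6% of all tested genes. The shares were 8.33% to 15.4% for the Notch, copper and zinc, proteasome, Wnt, glucose and retinoid lists. Of 33 genes of glucose use, 5 fell and 0 rose in limma (1 at an unadjusted p under 0.05, 0 by voom), the falls being 3 without TNBS PF 3 or control PF 1, 2 or 3 and 3 with no filter on low values. They took in Pdk4, a brake on pyruvate oxidation, from 11.3 to 8.999 FPKM (-0.30 ± 0.0494) and Txnip, which restrains glucose uptake, from 65.7 to 55.7 FPKM (-0.24 ± 0.0405). The glycolytic enzyme Aldoc had the largest called fall of the list, from 6.09 to 4.66 FPKM (-0.33 ± 0.0658). Eno2, also of glycolysis, fell by 0.22 and was called in 5 of the 15 alternatives. In the retinoid list, Rdh10, which oxidizes retinol, and Crabp2, which carries retinoic acid, fell, 2 of 13, while 0 rose in limma (1 at an unadjusted p under 0.05, 0 by voom). Rdh10 was 11.4, 11.3 and 10.4 FPKM in control PF, 9.06, 8.04 and 7.57 in TNBS PF and 6.702, 7.97 and 7.45 in PBS. PBS overlapped TNBS PF, and control PF stood above both (log2 fold change -0.39, SE 0.0679, adjusted p = 0.00298). Of 10 integrins 3 rose, with the laminin receptor chain Itga6 at 0.32 ± 0.0508, and 2 fell, the rises being 1 without TNBS PF 1 or 2 or control PF 1 or 2. Of 28 cadherin, junction and adhesion genes 5 rose and 0 fell in limma (3 at an unadjusted p under 0.05, 1 by voom), the rises being 2 without TNBS PF 1 and 3 without TNBS PF 3 or control PF 1, 2 or 3. The Wnt list gave 2 rises and 2 falls of 28, with the receptor Fzd1 at -0.30 ± 0.0606, and the rises were 1 without TNBS PF 2 or 3 or control PF 1 or 2 and 1 with no filter on low values and the falls 1 without TNBS PF 2 or control PF 1 or 3 and 1 with no filter on low values. In the Notch list Rbpj, the DNA-binding partner of Notch, was the 1 of 12 that rose (0.20 ± 0.0289), and 0 fell in limma (4 at an unadjusted p under 0.05, 2 by voom). Semaphorins, ephrins and netrins were split, with 4 rises and 4 falls of 29, the guidance cue Sema3a at 0.27 ± 0.03701 and its receptor Nrp1 at -0.29 ± 0.0569. Those rises were 1 to 2 whichever of the 6 PF libraries was left out and 1 with no filter on low values, and the falls 2 without TNBS PF 2 or control PF 2. The prostaglandin list had 2 rises and 2 falls of 14, with the receptor Ptgfr at -0.39 ± 0.0714, and only 1 rise, Ptgs2, held whichever PF library was left out. Copper and zinc genes had 2 falls of 18 and 0 rose in limma (0 at an unadjusted p under 0.05, 0 by voom). Of the falls, the extracellular dismutase Sod3, going from 25.4 to 19.7 FPKM (-0.36 ± 0.07404), was still called whichever PF library was left out. Of 33 proteasome genes 3 rose (1 without TNBS PF 1 or 3 or with no filter on low values) and 1 fell, and of 27 antigen presentation genes 1 fell and 0 rose in limma (0 at an unadjusted p under 0.05, 0 by voom). Both falls were Psmb8, an immunoproteasome subunit, at -0.20 ± 0.0585, a call lost whichever of the 6 PF libraries was left out, on a TPM scale, after median-ratio scaling, with no filter on low values, after quantile normalization and at equal depth.

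Among the leading genes outside these lists, Tmem171, a membrane protein, was 4.46, 4.69 and 3.64 FPKM in control PF, 7.88, 7.87 and 6.202 in TNBS PF and 4.74, 5.62 and 5.19 in PBS. Its TNBS PF values were above the rest (log2 fold change 0.66, SE 0.09302, adjusted p = 0.000654). Upp1, which breaks down uridine, rose from 6.94 to 9.84 FPKM (0.45 ± 0.0561) and Rgs16, which shortens G protein signals, from 8.06 to 11.5 FPKM (0.46 ± 0.0801). Krt19, an epithelial and mesothelial keratin, was 4.21, 2.96 and 3.33 FPKM in control PF, 6.06, 6.699 and 4.61 in TNBS PF and 4.83, 3.42 and 3.21 in PBS. PBS 1 exceeded TNBS PF 3 (log2 fold change 0.59, SE 0.137, adjusted p = 0.0154), and the call was lost without TNBS PF 1 or 2 or control PF 2 or 3 and with no filter on low values. With it, the summed mesothelial markers were 46.5 to 47.8 FPKM in control PF, 52.8 to 58.1 in TNBS PF and 48.0 to 48.7 in PBS. Of the 14 markers, Msln, Krt18, Krt19 and Slpi reached 1 FPKM, 3 of the 4 were called higher (1 without TNBS PF 1 or 2, without control PF 2 or with no filter on low values), and 10, among them Upk3b and Wt1, stayed under 1. The other one, Slpi, was lower in TNBS PF without overlap between the PF groups, and was not called. It was 6.45, 5.79 and 5.87 FPKM in control PF, 4.83, 4.44 and 5.55 in TNBS PF and 4.175, 5.28 and 3.71 in PBS. The mean of Msln went from 35.6 to 42.2 FPKM. Whether mesothelial cells carried over with the fluid bear on these marker levels was not tested. Gjb2, a gap junction protein, rose by 0.45, a call lost without TNBS PF 1. Its mean was 0.698 FPKM in control PF, 1.31 in TNBS PF and 1.38 in PBS, so control PF was the low group. On the other side, Igsf10 was 6.92, 6.505 and 7.19 FPKM in control PF, 4.19, 4.23 and 4.398 in TNBS PF and 7.41, 7.01 and 6.48 in PBS. TNBS PF was the low group without overlap (log2 fold change -0.58, SE 0.0558, adjusted p = 5.5e-05). Rgs4, a relative of Rgs16, fell from 7.03 to 4.94 FPKM (-0.44 ± 0.0683), and Bmf, a death-promoting BCL2 relative, from 2.83 to 1.81 FPKM (-0.44 ± 0.0751). Gpr153, Cbr2, A4galt, Ly6c1, Tmem119, B9d1, Itgbl1, Gstm7 and Serpina3i fell by 0.42 to 0.55 and passed in every alternative. Rsph9, Tatdn3 and Camk2n2 fell by 0.46, 0.44 and 0.42, and their calls were lost without TNBS PF 1 or 3 or control PF 2 and with no filter on low values (Rsph9), without TNBS PF 1 or control PF 2 or 3 and with no filter on low values (Tatdn3) and without TNBS PF 2 or 3 or control PF 1 or 2, with no filter on low values and after quantile normalization (Camk2n2). The mean of Camk2n2 was 2.54 FPKM in control PF, 1.64 in TNBS PF and 1.42 in PBS.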

How the data were processed

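Bulk RNA-seq of 9 libraries was used as deposited, in 3 groups of 3 taken from the sample labels. The authors trimmed reads with cutadapt 1.15 and used the mm10 build, per the submitters' processing notes; no source used here names the aligner or counter. The deposited values were FPKM per gene, per the file headers, and the authors' deposited table also gave group means, log2 fold changes and p-values, which were used only where named. All 21959 genes were read, and 57 had no length in the annotation used here (GENCODE M21, GRCm38).

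Values were tested as log2(FPKM + 1) with limma 3.58.1 in R 4.3.3, all 9 libraries in 1 fit with a mean-variance trend, for genes of at least 1 FPKM in at least 3 libraries, with Benjamini-Hochberg adjustment and a threshold of 0.05 (two-sided). Fold changes of low genes are understated on this scale. Whole fragments were recovered from the FPKM steps and gene lengths, 97.2% to 97.3% of values under 1000 fragments coming out within 0.01 of a whole number, and gave the depths and the voom alternative. The 15 alternatives were other scalings, pseudocount, filter, the 6 PF libraries alone, a replicate block, equal depth, voom and leaving out each PF library. The fit was tested on simulated data.

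The genes compared and the 49 gene lists were chosen with earlier results of these data known. Genes named were the 25 largest rises and 25 largest falls without overlap and up to 4 called members of each list (where none was called, the one with the smallest p). Python 3.11.15, numpy 2.4.6, pandas 2.3.3 and scipy 1.17.1 were used, and promoter sequences came from RefSeq (GRCm38.p6).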

Additional observations from a re-analysis of the deposited data

How the results depend on the processing

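Leaving out 1 PF library at a time gave 661 to 860 called genes, 333 to 436 higher and 310 to 424 lower. The other 9 alternatives gave 784 (no filter on low values) to 1550 (voom on recovered fragments), all within 1.5 times the reported count. Median-ratio scaling called 648 genes higher and 469 lower. Whether replicate numbers pair the samples is not stated. The deviations of same-numbered libraries correlated at -0.0305, 0.0336 and 0.026, and those of differently numbered ones at -0.0513 to 0.0253. These values show no shared deviation, but they cannot tell whether same-numbered libraries were prepared together. The fit with the replicate block called 906 genes, 450 higher and 456 lower. Of 186 named genes, 184 were called and 132 of those were called in all 15 alternatives, with 0 that changed direction. Leaving out at least 1 of the PF libraries ended the call of 51 named genes, and testing with no filter on low values that of 38. The replicate block ended the call of 11 named genes, and the lost calls given with single genes above leave it out. Depth and 3 libraries a group limit what can be seen, with a median SE of 0.0545 against a median absolute log2 fold change of 0.07 over all tested genes.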
